A study of Homo sapiens with 6 samples.

Results

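The genes described here encode the enzymes that write and remove methyl groups on cytosine in DNA, together with their closest partners: the DNA methyltransferases DNMT1, DNMT3A and DNMT3B, the DNMT1 partner UHRF1, the TET1, TET2 and TET3 dioxygenases, the glycosylase TDG and the methyl-CpG reader MBD2. The members were chosen by gene symbol, and all array probes annotated to these 9 symbols were taken, tested or not. At least 1 probe carried the symbol of 8 members out of 20045 genes named on the array, and TET3 was the symbol of no probe in the annotation used. These 8 genes had 21 probes, of 47321 in all.

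RNA came from PEO4, an established human line of high-grade serous ovarian cancer grown in RPMI with fetal bovine serum, which had been transduced with lentiviral vectors for a short hairpin RNA (shRNA) and kept under puromycin. The control cells expressed a nonspecific, or non-silencing, (NS) shRNA, and the others expressed SHMT1 shRNA F11 or SHMT1 shRNA F12, with 2 Illumina HumanHT-12 arrays for each of the 3. Whether both arrays of a group came from separate cultures is not given in the labels, and p-values then measure only the spread between these arrays, which may be technical. All results are mRNA levels in whole cultures, where fewer expressing cells and less RNA per cell cannot be told apart, and DNA methylation itself was not measured.

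SHMT1, the cytosolic serine hydroxymethyltransferase targeted by both shRNAs, had intensities of 542 and 544 on the NS arrays, 291 and 342 with F11 and 434 and 442 with F12, at the brightest of its 3 probes. The F11 and F12 arrays were all below both NS arrays, and the F12 arrays lay between the F11 and the NS arrays. The F11 decrease, -0.78 on the log2 scale, passed (adjusted p = 0.00534 from limma), while that of F12, -0.31, did not (adjusted p = 0.214). Averaged over both shRNAs the decrease, -0.55, passed (adjusted p = 0.0262), and that call was lost in 5 of 12 alternatives. At the dimmer SHMT1 probes the log2 fold changes were -0.28 and -0.04 with F11 (adjusted p = 0.0713 and 0.889) and -0.04 at both with F12 (adjusted p = 0.885 and 0.908). Leaving out 1 NS array, whichever it was, ended the F11 call (adjusted p = 0.0542 and 0.0585). Replicate arrays correlated across tested probes with r from 0.994 to 0.997, and arrays of different groups with r from 0.988 to 0.995. All 11 markers of serous epithelium that were looked for passed the background filter described below, SOX17 only through the F11 arrays. Of the endothelial markers 0 of 4 passed it, of the leukocyte markers 3 of 6 (CD14, CD68 and CD79A, but not PTPRC, CD3E or LYZ) and of the fibroblast markers 4 of 6 (COL1A1, COL1A2, COL3A1 and DCN, between 79.3 and 115 on all arrays at their brightest probes, but not LUM or PDGFRB). CD14, a monocyte marker, fell with F12 by 0.59 on the log2 scale, from 232 and 209 to 155 and 139 (adjusted p = 0.0357 from limma), and that call was lost in 5 of 12 alternatives, which include the fits without 1 NS or 1 F12 array (adjusted p from 0.0727 to 0.331).

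In human cells DNMT1 copies the methylation pattern onto newly made DNA, guided by UHRF1, which binds CpG sites methylated on the parental strand only. DNMT3A and DNMT3B place methyl groups on unmethylated CpG sites. All 3 enzymes take the methyl group from S-adenosylmethionine, which is replenished through the folate and methionine cycles to which SHMT1 supplies carbon units. TET enzymes oxidize 5-methylcytosine stepwise in a reaction that consumes 2-oxoglutarate, TDG removes the most oxidized forms so that repair restores plain cytosine, and MBD2 binds methylated CpG and brings in the NuRD corepressor complex.

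The CpG sites on which these enzymes act differ in number between promoters, and the starts of DNMT1 and UHRF1, the maintenance pair, are shown because both genes were clearly expressed and their own promoters are rich in the substrate. In the 300 bases around each start in RefSeq (GRCh38.p14, 250 bases before it and 50 after), the CpG dinucleotides are in capitals. The DNMT1 window (chr19:10194904-10195203, minus strand) held 30 CpG and the window shown of 3 for UHRF1 (chr19:4909251-4909550, plus strand) held 36, against a median of 14 over all 35116 promoter windows.
DNMT1: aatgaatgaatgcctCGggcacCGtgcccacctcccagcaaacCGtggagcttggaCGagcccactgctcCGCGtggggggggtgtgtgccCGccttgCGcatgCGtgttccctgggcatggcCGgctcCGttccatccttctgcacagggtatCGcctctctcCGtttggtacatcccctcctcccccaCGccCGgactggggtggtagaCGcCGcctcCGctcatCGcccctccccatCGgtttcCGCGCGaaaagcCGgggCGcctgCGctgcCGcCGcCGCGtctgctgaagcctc
UHRF1: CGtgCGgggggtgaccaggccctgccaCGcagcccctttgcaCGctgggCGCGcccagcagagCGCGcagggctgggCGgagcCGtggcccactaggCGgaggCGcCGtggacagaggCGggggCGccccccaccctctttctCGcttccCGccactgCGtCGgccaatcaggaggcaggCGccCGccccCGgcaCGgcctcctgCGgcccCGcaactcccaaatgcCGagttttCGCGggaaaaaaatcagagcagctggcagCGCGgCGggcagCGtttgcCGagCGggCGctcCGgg
As many CpG or more were present in 22.4% of all windows for DNMT1 and in 12.7% for UHRF1. Over the 20 windows of the 9 members the count ran from 3, in the single DNMT3B window, to 46, in 1 window of DNMT3A and 1 of UHRF1, and 15 of the 20 were above the median of all windows. The DNMT3B window (chr20:32779602-32779901) lies within the gene (chr20:32762385-32809356), so its count does not describe the gene's outermost start. The UHRF1 and TET3 windows also lie within their genes.

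The background of the arrays had its mode at an intensity of 85.5, and a probe was tested if at least 2 of the 6 arrays gave more than 91.6, which is the 95th percentile of that background. Of the 21 member probes 10 passed this filter, from DNMT1, DNMT3B, UHRF1, TET1, TDG and MBD2. The 11 probes that did not pass lay between 77.0 and 93.7 on all arrays. They include all 3 probes of DNMT3A (79.0 to 89.5) and the only probe of TET2 (81.5 to 88.8), so no change of these 2 genes could be measured here. Levels of different probes are not set against each other below, because probes differ in how brightly they report a transcript.

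**Figure D1:**
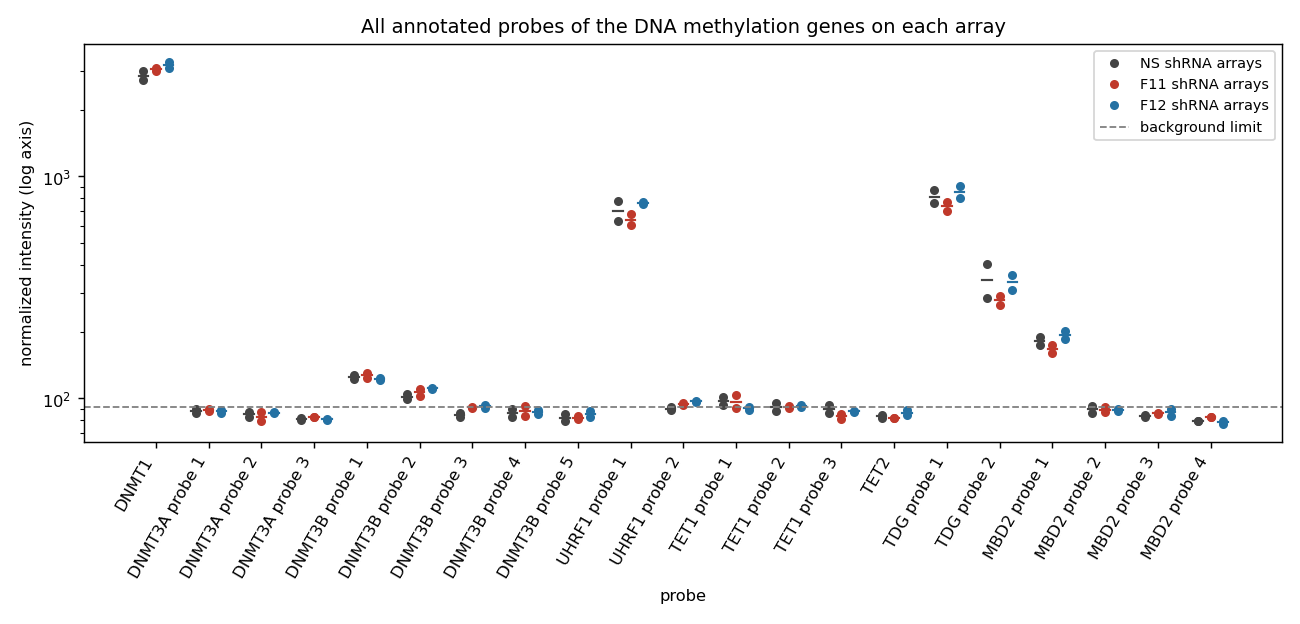
Normalized intensity (log axis) of each of the 21 annotated probes on the 6 arrays, with short bars for the group means of 2 arrays and the background limit of 91.6 as a dashed line. The DNMT1 probe, probe 1 of UHRF1, both TDG probes and probe 1 of MBD2 stand clear of the limit on every array, while the DNMT3A and TET2 probes lie below it.

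To determine whether SHMT1 knockdown changed the methylation machinery, each shRNA was compared with NS shRNA, F12 was compared with F11, and both shRNAs were averaged, in 1 limma fit over all 22991 tested probes. None of the 10 member probes passed an adjusted p of 0.05 in any of these 4 comparisons. Over all tested probes 0.465% passed in the averaged comparison, 2.58% with F11, 0.626% with F12 and 5.85% between F12 and F11, so that 0 of 10 is near the background in each. The lowest adjusted p among the member probes was 0.524 averaged, 0.474 with F11, 0.447 with F12 and 0.170 between F12 and F11. At an unadjusted p under 0.05 no member probe passed against NS in limma, where 10.2%, 15.3% and 11.2% of all probes did in the averaged, F11 and F12 comparisons, and 2 passed between F12 and F11, where 20.1% of all probes did.

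DNMT1, the maintenance methyltransferase (chr19:10133346-10194953 in GRCh38.p14), was read by 1 probe, at intensities of 2723 and 2972 with NS, 3078 and 3001 with F11 and 3276 and 3075 with F12. The group means were 2847 ± 176, 3040 ± 54.6 and 3175 ± 143 (SD, n = 2 arrays). Both shRNA groups lay above both NS arrays, by a narrow margin for F11. The dimmer UHRF1 probe described below was the other of the 2 tested member probes with this order, found in 7.91% of all tested probes. No tested member probe had the reverse order, found in 6.94%. DNMT1 and that UHRF1 probe were also the 2 tested member probes with both F11 arrays above both NS arrays, against 22.1% of all tested probes. The UHRF1 probe passed the filter only through the SHMT1 shRNA arrays, so its part in these counts is partly set by the filter. Both F12 arrays were above both NS arrays at 3 tested member probes, the same 2 and the dimmer of DNMT3B (23.2% of all), and below them at 1, of TET1 (21.1% of all), and both F11 arrays were below at none of the 10 (20% of all). That TET1 probe passed the filter without the F12 arrays, so its order is partly set by the filter. On the log2 scale DNMT1 differed from NS by 0.10 for F11 (standard error 0.0675, 95% interval -0.06 to 0.25, adjusted p = 0.601 from limma) and by 0.16 for F12 (95% interval -0.00 to 0.32, adjusted p = 0.447). The upper bounds correspond to 1.19-fold and 1.25-fold, and the lower bound with F11 to 0.957 of the NS intensity.

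UHRF1, whose window is printed above and which recruits DNMT1 to replicating DNA, read 627 and 776 with NS, 602 and 677 with F11 and 751 and 769 with F12 at its brighter probe. The NS arrays lay further apart than either shRNA pair and overlapped both. The log2 fold change against NS was -0.13 with F11 (95% interval -0.38 to 0.12, adjusted p = 0.669 from limma) and 0.12 with F12 (95% interval -0.13 to 0.37, adjusted p = 0.737). Both F12 arrays were above both F11 arrays, with a log2 difference of 0.25 (standard error 0.106, adjusted p = 0.245). The other UHRF1 probe was close to background, at 88.3 and 91.3 with NS, 93.0 and 95.6 with F11 and 96.8 and 97.5 with F12. It passed the filter only through the 4 SHMT1 shRNA arrays, so that its order (SHMT1 shRNA above NS) is partly set by the filter. Its log2 fold changes of 0.07 and 0.11 did not pass (adjusted p = 0.648 and 0.512).

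DNMT3B, the only de novo methyltransferase with tested probes, was seen weakly, at 2 of its 5 probes. The brighter read 122 and 128 with NS, 123 and 131 with F11 and 124 and 121 with F12, and the 3 groups overlapped. Its log2 fold changes were 0.02 with F11 (95% interval -0.12 to 0.17, adjusted p = 0.921 from limma) and -0.03 with F12 (95% interval -0.17 to 0.11, adjusted p = 0.905). The dimmer read 98.9 and 105 with NS, 103 and 111 with F11 and 111 on both arrays with F12. F12 was above NS there and F11 overlapped NS, with log2 fold changes of 0.12 for F12 (adjusted p = 0.545) and 0.07 for F11 (adjusted p = 0.737). Another DNMT3B probe, which did not pass the filter, read 85.6 and 82.2 with NS and from 90.5 to 93.7 on the SHMT1 shRNA arrays, within reach of the background on every array.

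On the side of demethylation, TET1 had 2 tested probes, both at the edge of the background. The brighter read 101 and 93.8 with NS, 103 and 90.3 with F11 and 88.9 and 91.3 with F12, so that the F12 arrays, below both NS arrays, were themselves under the background limit. It passed the filter only through NS and F11 arrays, so that its order (F12 below NS) is partly set by the filter. On the log2 scale F11 differed from NS by -0.01 (adjusted p = 0.968 from limma) and F12 by -0.11 (95% interval -0.30 to 0.07, adjusted p = 0.661). The other lay between 88.2 and 95.02 in all groups, with log2 fold changes of -0.00 and 0.01. At these intensities the background makes up most of the signal, and fold changes are understated.

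TDG, the glycosylase that follows the TET enzymes (chr12:103965872-103988874), read 865 and 757 with NS, 764 and 701 with F11 and 797 and 903 with F12 at its brighter probe. F11 and F12 each overlapped NS, and both F12 arrays were above both F11 arrays. The log2 fold change was -0.14 with F11 (95% interval -0.36 to 0.07, adjusted p = 0.557 from limma) and 0.07 with F12 (95% interval -0.15 to 0.29, adjusted p = 0.849), and the difference between the shRNAs was 0.21 (adjusted p = 0.261). The dimmer TDG probe read 284 and 402 with NS, 263 and 291 with F11 and 359 and 309 with F12. Its NS arrays were the farthest apart of any group at a member probe on the log2 scale, and the interval with F11, from -0.66 to 0.08, was accordingly wide. A TDG decrease of up to 1.58-fold with F11 is therefore within the error at that probe, against up to 1.29-fold at the brighter one.

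MBD2, the reader (chr18:54151606-54224669), passed the filter at 1 of 4 probes and read 174 and 190 with NS, 161 and 174 with F11 and 201 and 186 with F12. The means were 182 ± 11.2, 168 ± 9.21 and 194 ± 10.9 (SD, n = 2). The F12 arrays were both above the F11 arrays, and the log2 difference of 0.21 (standard error 0.0751, 95% interval 0.03 to 0.39) had the lowest p of all member probes, 0.0255 before and 0.170 after adjustment over all probes in limma. Compared with NS, MBD2 had log2 fold changes of -0.12 for F11 (adjusted p = 0.550) and 0.09 for F12 (adjusted p = 0.717). The remaining MBD2 probes lay between 77.0 and 92.3.

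**Figure D2:**
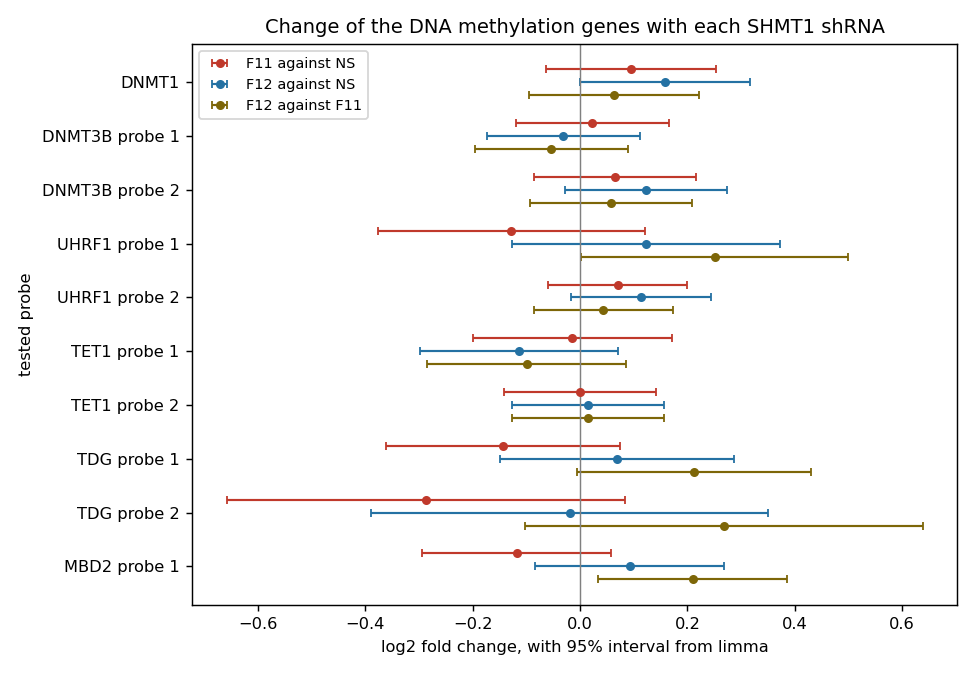
Log2 fold change of the 10 tested member probes, with 95% intervals from limma, for F11 against NS, F12 against NS and F12 against F11 (2 arrays a group). All intervals against NS include 0, and none of the 3 comparisons passed an adjusted p of 0.05 at any probe.

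Taking the 10 tested probes together, 4 had a positive and 6 a negative log2 fold change with F11, and 7 and 3 with F12, with medians of -0.01 and 0.08 beside 0.00 over all tested probes in both comparisons. Between F12 and F11, 8 were positive and 2 negative, the median was 0.06, and both F12 arrays lay above both F11 arrays at 6 of the 10 probes (DNMT3B, both of UHRF1, both of TDG, and MBD2), against 24.6% of all tested probes, while the opposite order was at none of the 10 and at 23.9% of all. These 6 probes come from 4 genes, and probes of 1 gene are not independent. The intervals over the 10 probes reached from -0.66 to 0.25 with F11 and from -0.39 to 0.37 with F12, so that rises above 1.19-fold with F11 and 1.29-fold with F12, and decreases beyond 1.58-fold and 1.31-fold, lie outside the 95% interval of every tested probe. After a normexp background correction the bounds widened, most for the dim probes, to 1.38-fold higher and 1.69-fold lower with F11 and to 1.5-fold higher and 1.61-fold lower with F12. The log2 interval of the dimmer UHRF1 probe, near background, was then positive throughout with F12, from 0.06 to 0.58 (adjusted p = 0.377 from limma). Averaged, it ran from 0.04 to 0.49 (adjusted p = 0.440).

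To place these genes among the processes they depend on, 7 lists with 142 further genes were read at the brightest tested probe of each gene, and 100 of them were measured. In the averaged comparison and with F12 alone none of the 100 passed in limma, where 0.646% and 0.848% of all 12857 genes did, and at an unadjusted p under 0.05 14 were higher and 6 lower averaged (6.9% and 5.76% of all genes), 18 higher and 9 lower with F11 (10.6% and 8.38% of all genes) and 18 higher and 3 lower with F12 (6.95% and 6.52% of all genes). With F11, 6 passed (6%, against 3.59% of all genes), 2 higher and 4 lower, where 1.84% of all genes were higher and 1.76% lower. Between F12 and F11, 9 passed (9%, against 7.57% of all genes), 7 higher and 2 lower with F12, where 3.45% of all genes were higher and 4.12% lower. The averaged background was 0.21% higher and 0.436% lower, and that of F12 0.303% higher and 0.544% lower.

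Genes of DNA replication, the phase in which DNMT1 and UHRF1 work, gave no call. Of 30 such genes, among them PCNA, the MCM helicase subunits and MKI67, 29 were measured and none passed in any of the 4 comparisons in limma. Their median log2 fold change was 0.08 with F11 and 0.04 with F12, beside 0.01 and 0.00 over all genes. At an unadjusted p under 0.05, 7 of the 29 were higher and none lower with each shRNA, where 10.6% of all genes were higher and 8.38% lower with F11 and 6.95% and 6.52% with F12. For the NuRD partners of MBD2 12 of 13 were measured and none passed in limma, with medians of 0.03 and 0.05, while at an unadjusted p under 0.05 there were 2 higher and 1 lower with F11 and 2 higher and 0 lower with F12.

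In the methionine and S-adenosylmethionine cycle, which makes the methyl donor of the DNMT enzymes, 14 of 20 genes were measured and 1 passed, with F11. This was AHCY, which hydrolyses S-adenosylhomocysteine, the product of methyl transfer from S-adenosylmethionine and an inhibitor of methyltransferases. AHCY read 2637 and 2859 with NS, 3419 and 3779 with F11 and 3334 and 3390 with F12. All 4 SHMT1 shRNA arrays were above both NS arrays. AHCY rose by 0.39 on the log2 scale for F11 (standard error 0.0721, adjusted p = 0.0415 from limma), and F12 had 0.29 (adjusted p = 0.197), and no difference between the shRNAs was detected (-0.10, adjusted p = 0.539). The AHCY call was lost in 7 of 12 alternatives, among them each fit without 1 array except the one without F11 replicate 1. Here and below, where single groups are compared, leaving out an array of the group not compared repeats the fit of only the compared groups. Such alternatives are not separate checks.

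A further list held enzymes that make or consume 2-oxoglutarate, the cosubstrate of the TET enzymes, or 2-hydroxyglutarate, which inhibits them when it accumulates. The subunits of succinate dehydrogenase and FH, which act on succinate and fumarate instead, were on it too. Of its 14 genes 11 were measured. SDHA, a subunit of succinate dehydrogenase, rose with F11, from 638 and 674 to 849 and 836 (log2 fold change 0.36, adjusted p = 0.0274 from limma), with 730 and 766 in F12. Its second probe did not pass (0.17, adjusted p = 0.495). IDH1, the cytosolic isocitrate dehydrogenase, read 904 and 831 with NS, 697 and 715 with F11 and 1020 and 1050 with F12, so that the shRNAs lay on opposite sides of NS. At this probe IDH1 passed between F12 and F11 (0.55, adjusted p = 0.00417), at its dimmer probe it did not (0.49, adjusted p = 0.128), and it did not pass against NS (-0.30, adjusted p = 0.0662, and 0.26, adjusted p = 0.198). D2HGDH, which oxidizes D-2-hydroxyglutarate, was lower with F12 than with F11 (-0.31, adjusted p = 0.0322). The SDHA and D2HGDH calls were each lost in 10 of 12 alternatives, which include the 6 fits without 1 array (adjusted p from 0.0517 to 0.227), and the IDH1 call without either F12 array (adjusted p = 0.0535 and 0.0633).

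The base excision and repair genes listed beside TDG gave 2 calls among 14 measured of 15, both between F12 and F11 only, where 7.57% of all genes passed. GADD45A, a stress-induced gene that has been linked to repair-coupled demethylation, was higher with F12 at both its probes (0.41, adjusted p = 0.0124, and 0.46, adjusted p = 0.0491 from limma), at 473 and 493 against 357 and 368 with F11 and 382 and 410 with NS at the brighter. NTHL1, another base excision glycosylase, was lower with F12, at 294 and 288 against 404 and 375 with F11 and 339 and 358 with NS (-0.42, adjusted p = 0.0125). The calls of GADD45A (brighter probe) and NTHL1 were lost when 1 F12 array was left out (adjusted p from 0.0904 to 0.126), and that of the dimmer GADD45A probe in 5 of 12 alternatives, which include the fits without F11 replicate 1 or 1 of the F12 arrays (adjusted p from 0.0516 to 0.269).

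**Figure D3:**
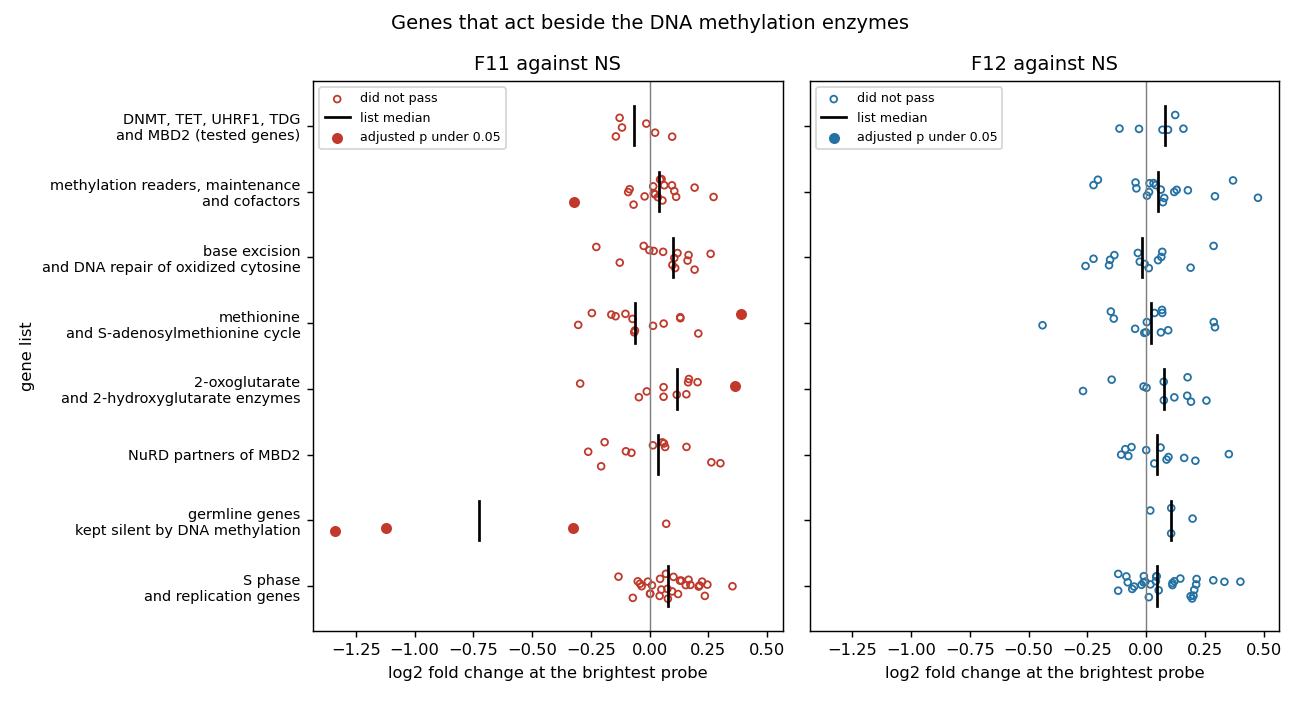
Log2 fold change against NS, for F11 (left) and F12 (right), at the brightest probe of each measured gene in the lists named on the vertical axis, with filled points for an adjusted p under 0.05 and a black bar for the list median. With F11, 6 listed genes passed, 3 of them SSX genes on the far left, and with F12 none did.

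Among methylation readers and cofactors, 18 of 23 genes were measured. DNMT3L, which has no catalytic activity of its own and stimulates DNMT3A and DNMT3B, lay on opposite sides of NS with the 2 shRNAs. Its brighter probe read 129 and 135 with NS, 103 and 108 with F11 and 173 and 167 with F12, and the 3 groups did not overlap. The log2 fold change was -0.32 with F11 (standard error 0.0591, adjusted p = 0.0408 from limma) and 0.37 with F12 (adjusted p = 0.0526), and the shRNAs differed by 0.69 (adjusted p = 0.00133). Its second probe had the same order, 116 and 112 with NS, 95.6 and 101 with F11 and 130 and 120 with F12, with a difference of 0.35 between the shRNAs (adjusted p = 0.0271). The call for F11 was lost in 8 of 12 alternatives, which include the 6 fits without 1 array (adjusted p from 0.0597 to 0.219), and that of the second probe in 6 (adjusted p from 0.0539 to 0.196), while the difference at the brighter probe passed in all 12. CXXC5, which binds unmethylated CpG and belongs to a family related to the DNA-binding domain of TET1, was higher with F12 than with F11 at both probes (0.54, adjusted p = 0.0401, and 0.37, adjusted p = 0.0121). At the dimmer CXXC5 probe it also rose against NS (0.38, adjusted p = 0.0385), from 1867 and 1858 to 2438 and 2423. That rise was lost in 7 of 12 alternatives (adjusted p from 0.0780 to 0.380), namely normexp, the replicate block, the trended robust eBayes and the fits in which 1 of the NS or F12 arrays was left out. The difference between the shRNAs was lost at both probes without 1 of the F12 arrays, at the dimmer also after normexp, and at the brighter also without F11 replicate 1.

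Germline genes that DNA methylation keeps silent in most tissues were read as the last list. Of 30 genes 4 were measured (SSX1, SSX2, SSX4 and MAGEA6), and those not measured had no probe above 94.4. The SSX genes, cancer-testis antigens of the X chromosome, were all lower with F11, where 1.76% of all genes passed as lower. The list was chosen with earlier results of these data known, so the share of it that passed is no result about such genes. SSX1 read 428 and 530 with NS, 177 and 200 with F11 and 545 and 548 with F12. The F11 arrays stood apart from the other 4, at -1.34 on the log2 scale against NS (standard error 0.107, adjusted p = 0.00242 from limma), a 2.53-fold decrease, while F12 had 0.20 (adjusted p = 0.565). SSX4 read 245 and 254 with NS, 111 and 118 with F11 and 238 and 303 with F12, so that F11 differed from NS by -1.12 (adjusted p = 0.00413) and F12 by 0.11 (adjusted p = 0.793). SSX2, dimmer, read 116 and 121 with NS, 92.9 and 96.0 with F11 and 123 and 133 with F12 (-0.33 with F11, adjusted p = 0.0489). The difference between F12 and F11 itself passed for SSX1 (1.54, adjusted p = 0.000582 from limma), SSX4 (1.23, adjusted p = 0.00153) and SSX2 (0.43, adjusted p = 0.0116). Over all genes 3.45% passed as higher in that comparison. MAGEA6 lay between 88.5 and 97.3 on all arrays, with a difference of 0.07 between F11 and NS (adjusted p = 0.692).

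**Figure D4:**
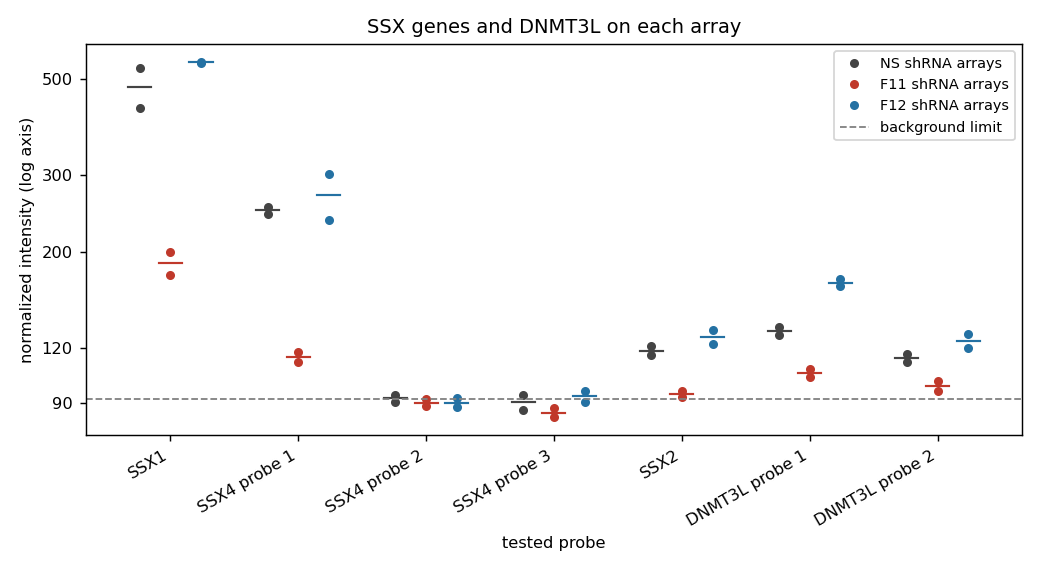
Normalized intensity (log axis) of the tested probes of SSX1, SSX4, SSX2 and DNMT3L on the 6 arrays, with bars for the means of 2 arrays and the background limit of 91.6 dashed. At SSX1, SSX4 probe 1 and SSX2 the F11 arrays lie below the NS and the F12 arrays, and at DNMT3L the order is F11, NS, F12.

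SSX genes are near-identical copies of each other, and a probe may bind transcripts of several, so the 3 decreases may be readings of fewer than 3 genes. The calls rest on 1 bright probe of 3 for SSX1, 1 of 5 for SSX4 and 1 of 5 for SSX2, and the other tested SSX4 probes, near background, had log2 fold changes of -0.03 and -0.08 with F11. Both SSX1 calls passed without any 1 array. For F11 the SSX4 call did not hold when NS replicate 2 was left out (adjusted p = 0.0517), that of SSX2 was lost in 9 of 12 alternatives, which include the 6 fits without 1 array (adjusted p from 0.0569 to 0.247), and its difference between the shRNAs without either F12 array (adjusted p = 0.0617 and 0.114). With F11, 3 of the 11 markers of serous epithelium passed as well, where 3.59% of all genes did. Of these, SOX17 passed the filter only through the F11 arrays, so its place in the count is partly set by the filter. The transcription factor SOX17 was higher, at 197 and 202 against 83.0 and 85.7 with NS and 83.5 and 81.2 with F12, which are background levels (1.24, adjusted p = 0.000348), and the keratins KRT7 (-0.59, adjusted p = 0.00556) and KRT8 (-0.61, adjusted p = 0.0141) were lower. The SOX17 call passed in each alternative that kept its probe, which the filter on all 6 arrays did not. The KRT7 call was lost without NS replicate 1, and that of KRT8 in 5 alternatives, which include the fits without 1 NS or 1 F12 array. In the averaged comparison SOX17 (0.60, adjusted p = 0.00601 from limma) and KRT7 (-0.42, adjusted p = 0.0262) passed, where 0.646% of all genes did. The averaged SOX17 and KRT7 calls were lost in 5 and 7 alternatives, and SOX17 was again absent from the filter on all 6 arrays. With F12, 1 of the 11 passed, where 0.848% of all genes did. This was MUC16, the CA-125 antigen, which was lower (-0.55, adjusted p = 0.0198) and lost its call in 6 alternatives, which include the fits without 1 NS or 1 F12 array (adjusted p from 0.0508 to 0.255). CDH1, the epithelial cadherin, passed between F12 and F11 only (0.36, adjusted p = 0.0382), and lost that call in 5 alternatives, which include the fits without F11 replicate 1 or 1 of the F12 arrays (adjusted p from 0.0509 to 0.224). The summed intensity of their probes was 22719 and 24093 with NS, 21943 and 23156 with F11 and 23060 and 24478 with F12, and their part in the SSX decrease was not tested. The promoters of SSX1 (chrX:48255142-48255441, plus strand) and SSX4 (chrX:48383289-48383588, plus strand) are shown for contrast with DNMT1 and UHRF1 above, with CpG again in capitals, since they hold fewer CpG than those windows.
SSX1: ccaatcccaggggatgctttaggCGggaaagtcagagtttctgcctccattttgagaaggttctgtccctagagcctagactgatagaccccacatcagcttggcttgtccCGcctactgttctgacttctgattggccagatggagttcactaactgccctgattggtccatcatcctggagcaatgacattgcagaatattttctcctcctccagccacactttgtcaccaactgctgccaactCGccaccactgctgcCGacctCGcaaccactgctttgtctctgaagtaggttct
SSX4: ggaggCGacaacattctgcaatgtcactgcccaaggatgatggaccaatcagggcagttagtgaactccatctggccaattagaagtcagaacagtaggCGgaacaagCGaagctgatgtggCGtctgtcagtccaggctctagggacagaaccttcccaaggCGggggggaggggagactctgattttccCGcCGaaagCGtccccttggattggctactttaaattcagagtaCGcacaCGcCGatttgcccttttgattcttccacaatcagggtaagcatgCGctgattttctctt
These windows held 5 and 12 CpG, counts reached or exceeded by 70.4% and 53.1% of all promoter windows. The windows shown were picked for their counts, so the contrast is not a result. Low counts also occurred among the members, with 3 in the DNMT3B window and 6, 10 and 11 in the TET1 windows, while 15 of 20 member windows exceeded the median.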

How the data were processed

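PEO4 cells with NS shRNA (2 samples), SHMT1 shRNA F11 (2) and SHMT1 shRNA F12 (2) were grouped by the sample titles. The authors read the Illumina HumanHT-12 V4.0 arrays in GenomeStudio, log2-transformed and quantile-normalized them in lumi (version not given in the sources used here), and the deposited intensities are linear, run from 70.9 to 15895 and have the same median (89.9) in each sample. A background correction is not stated. A second deposited table, before normalization, holds 12 columns that could be tied to no sample by name and was not used here.

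The intensities were log2-transformed and fitted in limma 3.58.1 under R 4.3.3 (lmFit, eBayes, 3 groups, 3 residual degrees of freedom and a prior of 4.28). Two-sided p-values were adjusted (Benjamini-Hochberg) over the 22991 probes above 91.6 on at least 2 arrays. Where a member or SHMT1 has several probes the text gives each or their range, and for lists the brightest, with others where named. Probes were named from the platform annotation, where 30112 have 1 symbol, 8 several and 17201 none. All member probes are described. Of the lists and markers, the text names every gene that passed in any comparison where these were at most 8 per list. Members and lists were chosen with earlier results of these data known. PCNA, the MCM genes and MKI67 are named as examples of a list, and the choice to name MAGEA6 and the markers that did not pass was made with their values known. The fit was tested on simulated arrays. Alternatives were no filter and a filter on all 6 arrays, normexp with offset 16, the replicate number as a block, a trended robust eBayes, only the compared groups, a 1.5-fold limit, other ways to choose a probe, and each array left out. The number of arrays limits the precision. Promoter sequences and gene positions are from RefSeq (GRCh38.p14).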

Additional observations from a re-analysis of the deposited data

Results flagged for a closer look

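Between SHMT1 shRNA F12 and F11 the following probes differed by the test of the difference itself, in limma with adjustment over all probes. No member of the DNA methyltransferase and TET group is among them, and those calls that were lost without 1 array are given with the results above. F12 was higher than F11 for SSX1 (log2 difference 1.54, adjusted p = 0.000582), SSX4 (1.23, adjusted p = 0.00153), SSX2 (0.43, adjusted p = 0.0116) and IDH1 (0.55, adjusted p = 0.00417). F12 was also higher at both probes of DNMT3L (0.69, adjusted p = 0.00133, and 0.35, adjusted p = 0.0271), of CXXC5 (0.37, adjusted p = 0.0121, and 0.54, adjusted p = 0.0401) and of GADD45A (0.41, adjusted p = 0.0124, and 0.46, adjusted p = 0.0491). F12 was lower for NTHL1 (-0.42, adjusted p = 0.0125) and D2HGDH (-0.31, adjusted p = 0.0322). Of the epithelial markers, F12 was higher for KRT8 (0.57, adjusted p = 0.0114), KRT7 (0.34, adjusted p = 0.0237) and CDH1 (0.36, adjusted p = 0.0382), and lower for SOX17 (-1.27, adjusted p = 0.000190) and MUC16 (-0.66, adjusted p = 0.00239). The KRT8 difference was lost without either F12 array (adjusted p = 0.0811 and 0.118) and that of KRT7 in 5 alternatives, which include the fits without F11 replicate 1 or 1 of the F12 arrays (adjusted p from 0.0524 to 0.183). The level of SHMT1 itself was higher in F12 as well, by 0.47 on the log2 scale (adjusted p = 0.0197) at its brightest probe, and by 0.24 and 0.00 at the others (adjusted p = 0.0703 and 0.999). That call was lost without either F12 array (adjusted p = 0.141 and 0.157). Its part in these differences was not tested.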

How the results depend on the processing

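None of the 40 values of the member probes (10 probes, 4 comparisons) passed an adjusted p of 0.05 under any of 12 alternatives, which include each of the 6 arrays left out, and the lowest adjusted p was 0.114. The filter on all 6 arrays dropped the dimmer UHRF1 probe and both tested TET1 probes, so their values were not tested under it. Of the 40 values, 15 changed sign under at least 1 alternative. With the mean of the tested probes of each gene, 0 members passed as well. The counts of all genes with a called probe moved. In the averaged comparison 87 genes were called, and 162 with a trended robust eBayes, 7 with the shRNA arrays as 1 group, 25 with a 1.5-fold limit, and 1 to 209 with an array left out. With F11 the count was 488, and 316 with the replicate block, 173 with only the compared groups, 116 with a 1.5-fold limit, and 81 to 573 with an array left out. With F12 it was 117, and 64 with the replicate block, 241 with only the compared groups, 57 with a 1.5-fold limit, and 0 to 241 with an array left out. Between F12 and F11 it was 1052, and 224 with a 1.5-fold limit and 200 to 1430 with an array left out. Of the 100 measured list genes none passed in the averaged comparison, and 2 did after normexp and 2 with the trended robust eBayes (0 to 2 with an array left out). With F11 6 passed, and 3 with the replicate block, 2 with only the compared groups and 1 to 5 with an array left out. With F12 none passed, and 1 did without a filter, after normexp, with the trended robust eBayes or with any tested probe of a gene, and 2 with only the compared groups (0 to 2 with an array left out). Between F12 and F11 9 passed, and 3 to 12 with an array left out. After normexp the F11 log2 fold changes of SSX2 and DNMT3L were -0.77 and -0.66. Same-numbered arrays deviated together for NS and F11 (r = 0.46) but not for NS and F12 (r = -0.29) or F11 and F12 (r = -0.31). The replicate numbers thus do not pair the samples across all groups, and a block on them changed no member call. A pairing in another order, such as with the F12 arrays exchanged, was not tested. A lone array left in a group is assumed to vary like the others. Where single groups are compared and that group is not among them, the fit repeats the one of only the compared groups. These alternatives are then not separate checks. The causes of these movements were not tested. Signal over background limits DNMT3A, TET2, TET1 and DNMT3B most.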
